A study of Homo sapiens with 24 samples.

Results

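The transcriptome of Huh7 cells treated with an extract of Bupleurum chinense was compared with that of control Huh7 cells, using 6 of the 24 RNA-sequencing libraries of a study of herbal extracts in a liver and a lung carcinoma line. The 3 treated and 3 control libraries were fitted on their own, and 13784 of the 14585 genes in the table had a mean count above 5 in these libraries and were tested. The root of B. chinense is used in traditional Chinese medicine, and the study made its extracts with ethanol, dried them and dissolved the powder in DMSO. For the sequenced cells the dose, the duration and whether the controls received DMSO were not given in the sources used here, so an effect of the solvent cannot be told apart from one of the herb. Huh7 is a single cell line and the labels do not say whether replicates were separate cultures, so the p-values measure only the spread between these libraries, which may be technical.

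Huh7 is a hepatocellular carcinoma line that still makes many proteins of the hepatocyte, such as albumin, alpha-fetoprotein and apolipoprotein B. The study describes it as carrying mutant p53. Hepatocytes secrete plasma proteins, build cholesterol and fatty acids under the SREBP transcription factors, and clear foreign compounds with cytochrome P450 enzymes, some of which are switched on by the aryl hydrocarbon receptor. They also run the ATF4 programme, by which cells short of amino acids or under stress raise amino acid synthesis, transporters and tRNA synthetases.

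The control libraries held 16455709 to 24345541 estimated counts and the treated libraries 9526159 to 11546100, so depth and treatment moved together (exact two-sided permutation p = 0.1, the smallest that 3 against 3 libraries allow). Transcripts of replication-dependent histones made up 0.884% to 0.925% of counts in controls and 0.682% to 0.753% in treated cells, whereas mitochondrially encoded transcripts ranged from 1.93% to 2.26% and from 1.94% to 2.45%. All 8 hepatocyte markers were detected in every library, with a summed level of 20899.5 to 21395 in controls, in CPM (counts scaled to the size of the library after TMM normalisation), and 19052 to 19627 CPM in treated cells. Of the markers of other cell types, 13 of 23 were tested and the fibroblast markers summed to 15.02 to 19.6 CPM, the leukocyte markers without LYZ to 30.8 to 35.6 CPM and the lung carcinoma markers to 3.95 to 5.32 CPM over the 6 libraries. LYZ, which encodes the secreted enzyme lysozyme, listed with the leukocyte markers, was the exception among these, at 712, 699.97 and 742 CPM in the controls and 487, 457 and 493 CPM after treatment (log2 fold change -0.58, SE 0.04, adjusted p = 7.5e-05).

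**Figure D1:**
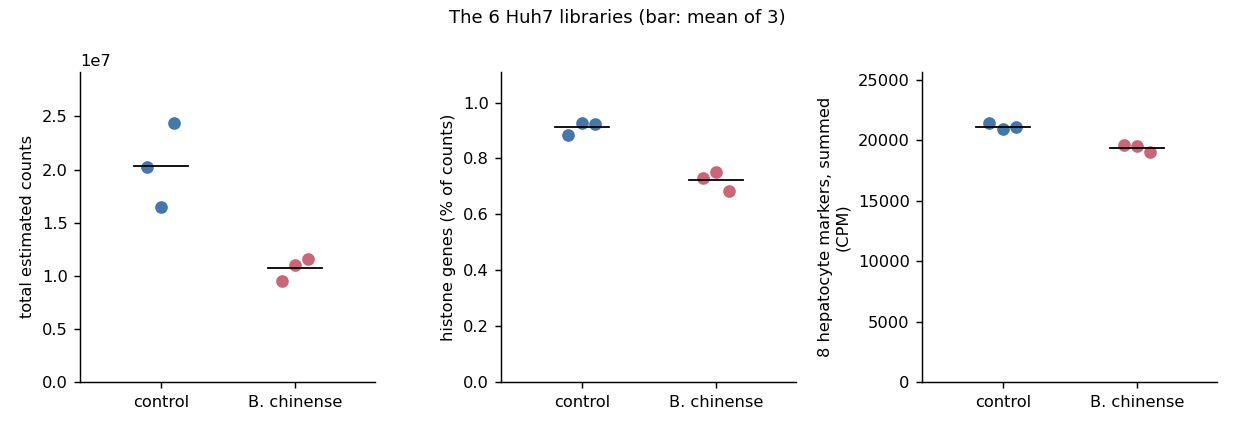
Total estimated counts, the share of counts from histone genes in percent, and the summed level of 8 hepatocyte markers in CPM, for each of the 3 control (blue) and 3 B. chinense (red) Huh7 libraries, with a bar at each mean. The groups do not overlap in any of the 3 panels, and the treated libraries are lower in each.

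After B. chinense treatment 1117 genes differed from control at a Benjamini-Hochberg adjusted p below 0.05 in edgeR's quasi-likelihood test, 8.10% of those tested. There were 400 genes with higher expression (2.90%) and 717 with lower expression (5.20%), so 64.2% of the changed genes fell. The treated and control libraries did not overlap for any of the 1117 called genes. This separation comes from the same values as the test and is no further support for the calls, and its share over all genes tested is not given here. When 1 library was left out, 460 (without control 3) to 736 (without treated 2) of the calls were kept. The changes were small, with a median log2 fold change of 0.34 among the rising and -0.33 among the falling genes, against 0.0012 over all genes tested. Only 34 genes rose and 34 fell at least 2-fold. At an unadjusted p below 0.05 there were 1467 higher and 1748 lower genes. With all 6 libraries thinned to the total of the smallest, 319 genes rose and 638 fell, and 911 of the 1117 calls were kept. Leaving out control 1, 2 or 3 left 199, 167 or 123 higher and 453, 401 or 350 lower genes, and leaving out a treated library left 229 to 266 and 529 to 588. A joint fit with the other 6 Huh7 libraries, given extracts of P. chinensis or P. umbellatus, gave 80 higher and 114 lower genes. In contrast, a fit of 9 Huh7 libraries gave 590 and 854. The 6 libraries were fitted on their own because the P. umbellatus libraries of this line are more spread. Whether that spread lies behind the difference between these fits was not tested. Rising genes had longer transcripts (median 4271.5 bases against 3609 over all genes tested) with less GC (46.2% against 47.8%), while falling genes had a median of 3370 bases and 52.2% GC. Whether this bears on the calls was tried only as a correction, which gave 387 higher and 748 lower genes. It kept 993 of the 1117 calls, and the falling histone genes went from 43 to 28.

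**Figure D2:**
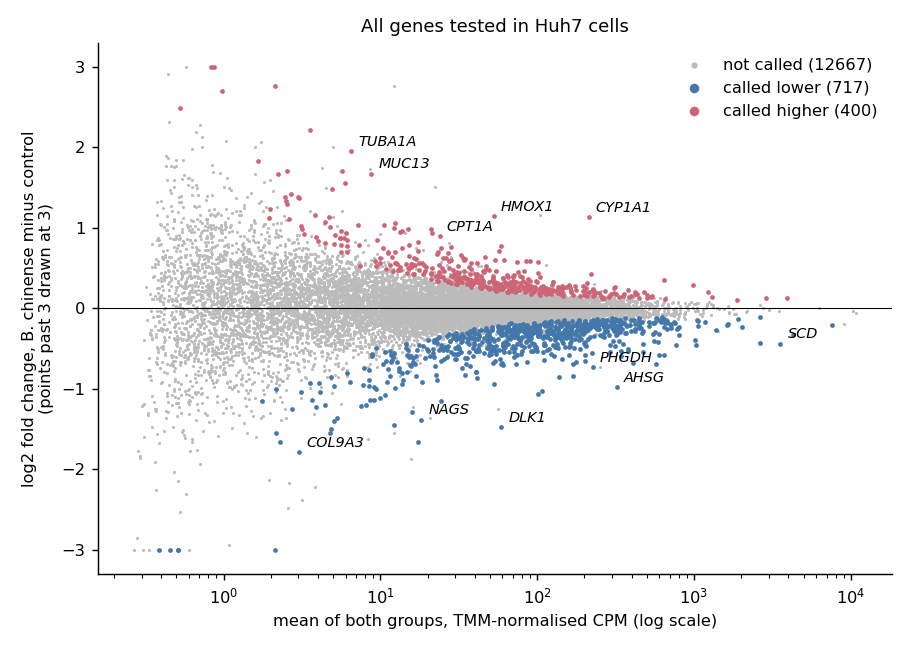
Log2 fold change of B. chinense against control for the 13784 genes tested, plotted against the mean CPM of both groups on a log axis, with 400 genes called higher in red, 717 called lower in blue and the rest in grey. Values past 3 in size are drawn at 3, most called genes lie close to 0, and among abundant genes AHSG and CYP1A1 stand out on either side.

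The gene with the lowest adjusted p was CYP1A1 (ENSG00000140465, chromosome 15, 74719542 to 74725536 on the minus strand of GRCh38), a cytochrome P450 that oxidises aromatic compounds and the best-known target of the aryl hydrocarbon receptor. It stood at 135, 128 and 136 CPM in the controls and at 285, 285 and 305 CPM after treatment (log2 fold change 1.13, SE 0.04, adjusted p = 5.5e-06). CYP1B1, a related enzyme, was at 2.71, 2.21 and 2.83 CPM in the controls and 8.03, 7.73 and 6.11 CPM after treatment (log2 fold change 1.48, SE 0.20, adjusted p = 0.0027). TIPARP, an ADP-ribosyltransferase that limits the same receptor, rose from 40.4, 46.9 and 41.6 to 62.3, 75.5 and 73.4 CPM (log2 fold change 0.72, SE 0.09, adjusted p = 0.0014). The lowest treated library lay above the highest control for each of these genes. The receptor itself did not pass the test, with AHR at 253, 256 and 249.8 CPM in the controls and 254, 241 and 289 CPM after treatment (adjusted p = 0.69), nor did CYP1A2, at 6.03, 5.84 and 6.12 and 6.47, 6.83 and 5.60 CPM (adjusted p = 0.84). AHR and CYP1A2 were named after their values were seen.

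Of 34 tested drug-metabolizing enzymes and their regulators, 6 rose and 3 fell, with a median log2 fold change of 0.07 against 0.0012 over all genes, and 3 to 6 rose when 1 library was left out (3 without control 1 or control 2). Only 1 to 3 fell in such fits (1 without control 1, control 3 or treated 1), and 1 fell with the replicate number as a block. The fall of ALDH1A1, a retinal dehydrogenase, was slight, from 1238, 1264 and 1239 to 1136, 1127 and 1060.4 CPM (log2 fold change -0.17, SE 0.03, adjusted p = 0.012). ADH6, an alcohol dehydrogenase, fell from 31.4, 27.5 and 31.1 to 18.99, 22.1 and 23.4 CPM (log2 fold change -0.48, SE 0.10, adjusted p = 0.023), a call lost without control 1, control 3 or treated 1 (adjusted p up to 0.097). The xenobiotic response element that the activated receptor binds has the core GCGTG, and the promoters of CYP1A1 and TIPARP are shown because both genes rose and both hold that core. The 250 bases before the RefSeq start site (build GRCh38.p14) are printed 5′ to 3′ in the direction of the gene, with matches on either strand in capitals, at chr15:74725529-74725778 on the minus strand and chr3:156674340-156674589 on the plus strand. The RefSeq start of TIPARP lies inside the annotated gene.
CYP1A1: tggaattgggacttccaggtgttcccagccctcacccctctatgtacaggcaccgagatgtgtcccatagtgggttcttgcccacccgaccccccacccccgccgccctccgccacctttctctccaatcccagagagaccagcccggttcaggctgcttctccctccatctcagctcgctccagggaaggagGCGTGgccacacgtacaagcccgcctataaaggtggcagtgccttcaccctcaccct
TIPARP: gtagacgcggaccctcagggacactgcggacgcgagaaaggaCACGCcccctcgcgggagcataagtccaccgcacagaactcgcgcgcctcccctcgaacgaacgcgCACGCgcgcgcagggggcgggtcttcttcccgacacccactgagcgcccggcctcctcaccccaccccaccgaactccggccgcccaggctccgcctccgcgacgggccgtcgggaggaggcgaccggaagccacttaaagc
The CYP1A1 promoter held 1 match, 57 bases before the start, and the TIPARP promoter held 2, at 208 and 142 bases before it on the opposite strand. The core is short, and 49.2% of the 11185 tested genes with a promoter in the table held it within 300 bases, so the match is a description only.

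In the plot of single libraries, the spread within a group was small beside the gap between groups for CYP1A1, AHSG and PHGDH, and wider for weakly expressed genes such as TUBA1A.

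**Figure D3:**
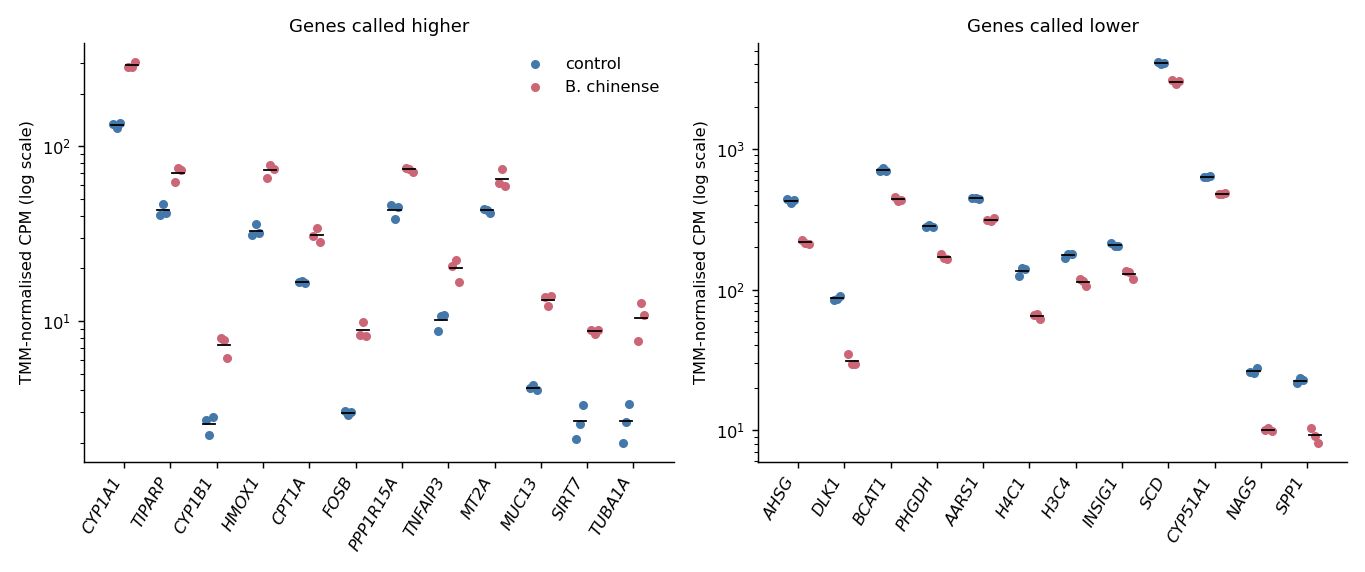
TMM-normalised CPM on a log axis in each control (blue) and B. chinense (red) Huh7 library for 12 genes called higher (left) and 12 called lower (right), with a bar at each group mean. The groups do not overlap for any of the 24 genes.

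Genes of the ATF4 programme were mostly lower. Of 38 tested members 22 fell and 4 rose (16 to 23 fell when 1 library was left out, 10 in the joint fit), and their median log2 fold change was -0.35. The falling members included the enzymes that make serine and asparagine and the tRNA synthetases. PHGDH (ENSG00000092621, chromosome 1, 119648411 to 119744218 on the plus strand of GRCh38), the first enzyme of serine synthesis, stood at 279.9, 287 and 279 CPM in the controls and 178, 167 and 164 CPM after treatment (log2 fold change -0.73, SE 0.04, adjusted p = 3.6e-05). AARS1, the alanyl-tRNA synthetase, was at 446, 446 and 442 CPM and then at 314, 306 and 321 CPM (log2 fold change -0.50, SE 0.03, adjusted p = 7.0e-05). ASNS, asparagine synthetase, named here after its values were seen, fell from 164, 187 and 182 to 107, 93.9 and 95.6 CPM (log2 fold change -0.85, SE 0.07, adjusted p = 1.5e-04). For these genes every treated library lay below every control, and the calls held whichever library was left out. BCAT1 (ENSG00000060982, chromosome 12, 24810024 to 24949101 on the minus strand of GRCh38), which transaminates branched-chain amino acids, was not on the list but among the 6 genes of lowest adjusted p, and fell from 695, 726 and 701 to 457, 426 and 434 CPM (log2 fold change -0.69, SE 0.04, adjusted p = 2.1e-05). SLC7A11, the cystine transporter, fell from 210.02, 229 and 215 to 133, 141 and 138 CPM (log2 fold change -0.67, SE 0.04, adjusted p = 8.0e-05).

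Against this direction, 4 members of the same list rose (2 without control 1, control 3, treated 2 or treated 3). PPP1R15A, a phosphatase subunit that restores translation after stress, was at 45.9, 38.5 and 44.9 CPM in the controls and 75.1, 74.3 and 71.7 CPM after treatment (log2 fold change 0.77, SE 0.07, adjusted p = 4.4e-04). GDF15, a secreted stress cytokine, rose from 69.7, 67.02 and 66.9 to 96.4, 101 and 109 CPM (log2 fold change 0.59, SE 0.06, adjusted p = 4.4e-04). ATF3 and DDIT3, both transcription factors of the stress response, were the other risers, and ATF3 went from 9.59, 9.28 and 9.11 to 11.5, 14.4 and 17.5 CPM (log2 fold change 0.64, SE 0.16, adjusted p = 0.041), a call lost without each library but treated 1 (adjusted p up to 0.13). The rising members are regulators and a cytokine, while most falling ones are enzymes, transporters and synthetases. ATF4 itself fell slightly, from 481, 480.4 and 487 to 434, 407 and 439 CPM (log2 fold change -0.18, SE 0.04, adjusted p = 0.016), and that call was lost without control 3.

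The promoters of ASNS and AARS1 are printed because both genes fell and both hold the letters TGATGNAA, the type of site that ATF4 binds with its partners. Among 33 list members with a promoter in the RefSeq table, a share of 27.3% held this motif within 300 bases on either strand, against 1.9% of all 11185 genes. Among the 19 falling members the share was 26.3%. The 250 bases before the start sites lie at chr7:97872409-97872658 on the minus strand and chr16:70289507-70289756 on the minus strand, with the match in capitals, and both RefSeq starts lie inside the annotated genes.
ASNS: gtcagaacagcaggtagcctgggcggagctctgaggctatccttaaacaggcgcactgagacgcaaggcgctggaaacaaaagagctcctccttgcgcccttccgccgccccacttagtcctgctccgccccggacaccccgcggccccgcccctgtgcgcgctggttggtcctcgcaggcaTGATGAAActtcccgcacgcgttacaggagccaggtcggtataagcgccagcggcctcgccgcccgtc
AARS1: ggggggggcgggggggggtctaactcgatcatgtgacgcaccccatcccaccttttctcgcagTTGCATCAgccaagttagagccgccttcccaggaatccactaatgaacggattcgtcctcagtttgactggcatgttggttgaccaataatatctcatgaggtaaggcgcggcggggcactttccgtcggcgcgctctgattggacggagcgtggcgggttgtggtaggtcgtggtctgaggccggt
The match in ASNS lay 68 bases before the start, and that in AARS1 lay 187 bases before it on the opposite strand. No binding was measured here.

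Genes of lipid synthesis fell together. Of 26 tested genes of cholesterol synthesis and uptake 18 fell and none rose (14 to 17 fell when 1 library was left out, 5 in the joint fit), with a median log2 fold change of -0.28. Of 21 tested genes of fatty acid synthesis and desaturation 13 fell and none rose (12 to 13, and 6 in the joint fit), with a median of -0.31. CYP51A1, a demethylase of the sterol pathway, was at 633, 635 and 639.5 CPM in the controls and 474, 474 and 488 CPM after treatment (log2 fold change -0.41, SE 0.03, adjusted p = 8.6e-05). INSIG1, which holds SREBP in the endoplasmic reticulum, fell from 213, 204 and 205 to 135, 132 and 119 CPM (log2 fold change -0.69, SE 0.05, adjusted p = 1.3e-04). The SREBP regulator thus moved the same way as the enzyme, and no treated library reached the lowest control for either.

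In fatty acid synthesis, FADS2, the delta-6 desaturase, stood at 881, 876 and 899.96 CPM in the controls and 657, 631 and 653 CPM after treatment (log2 fold change -0.45, SE 0.03, adjusted p = 7.5e-05). SCD, which makes monounsaturated fatty acids, was among the most abundant of the list and fell from 4167, 3989 and 4075 to 3093, 2905 and 3036 CPM (log2 fold change -0.44, SE 0.03, adjusted p = 7.5e-05). No treated library reached the lowest control for either gene. For fatty acid oxidation 2 of 28 genes rose and none fell, against 2.90% of all genes that rose. The median of this list was -0.05, with 20 of 28 below 0, so the list as a whole did not rise. CPT1A, the carnitine palmitoyltransferase that admits fatty acids to mitochondria, rose from 16.6, 16.97 and 16.4 to 30.5, 34.2 and 28.4 CPM (log2 fold change 0.90, SE 0.10, adjusted p = 8.9e-04). SLC25A20, the carnitine carrier of the next step, was at 43.3, 45.6 and 45.7 and 50.7, 54.2 and 54.2 CPM (log2 fold change 0.24, SE 0.06, adjusted p = 0.038), which was called only without treated 1 among the fits that left out a library (adjusted p up to 0.13).

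Among apolipoproteins and proteins of lipoprotein assembly 8 of 19 fell and none rose (5 to 7 when 1 library was left out, 5 without control 2, control 3 or treated 1), with a median of -0.28. APOC1, a small apolipoprotein, fell from 95.1, 92.8 and 97.4 to 71.4, 64.8 and 61.2 CPM (log2 fold change -0.53, SE 0.06, adjusted p = 0.0011). APOB, the structural protein of low-density lipoprotein, was at 11156, 10923 and 11119 CPM and 10809.7, 10615 and 10362 CPM (log2 fold change -0.06, adjusted p = 0.096).

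Of 28 plasma proteins and clotting factors 11 fell and 3 rose (7 to 10 fell when 1 library was left out, 7 without control 3 or treated 3), with a median of -0.17. AHSG (ENSG00000145192, chromosome 3, 186613060 to 186621318 on the plus strand of GRCh38), the liver glycoprotein fetuin-A, went from 441, 409 and 431 CPM to 225, 216 and 211 CPM (log2 fold change -0.98, SE 0.04, adjusted p = 5.7e-06). ALB, albumin, fell from 4847, 4699 and 4669 to 3821, 3718 and 3771 CPM (log2 fold change -0.33, SE 0.02, adjusted p = 8.6e-05). The fibrinogen chains moved the other way, with FGA at 557, 587 and 545 CPM in the controls and 721, 713 and 719 CPM after treatment (log2 fold change 0.35, SE 0.03, adjusted p = 4.4e-04). FGB rose from 191, 195 and 179 to 254, 264 and 244 CPM (log2 fold change 0.43, SE 0.05, adjusted p = 7.7e-04). The 3 rising members were all chains of fibrinogen, the precursor of the clot. Alpha-fetoprotein, the fetal counterpart of albumin, was at 2176, 2190.4 and 2169 CPM in the controls and 2079.5, 2172 and 2094 CPM after treatment and did not pass the test (AFP log2 fold change -0.04, adjusted p = 0.34).

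Of 19 complement and acute phase genes 7 fell and none rose (5 to 7 when 1 library was left out), with a median of -0.18. This median lies at a gap between C2, at -0.18, and MASP1, at -0.36, and moved to between -0.465 (without treated 1) and -0.286 (without control 3) in such fits, past 1.5 times its value in each. C3, the central complement protein, fell from 554, 519 and 558 to 399.6, 395 and 405 CPM (log2 fold change -0.44, SE 0.04, adjusted p = 2.0e-04). FGL1, a fibrinogen-like hepatokine, fell from 50.9, 52.6 and 52.2 to 29.8, 27.9 and 31.99 CPM (log2 fold change -0.79, SE 0.07, adjusted p = 3.5e-04). Of 26 hepatocyte transcription factors 1 rose and 5 fell (3 fell without control 2 or control 3), with a median of -0.05, against 5.20% of all genes that fell. HNF4A, the nuclear receptor at the centre of that network, rose from 456, 437 and 449.6 to 544, 501 and 505 CPM (log2 fold change 0.21, SE 0.04, adjusted p = 0.013), a call lost without control 2 or control 3 (adjusted p up to 0.054). NR1H4, the bile acid receptor FXR, fell from 197, 180.4 and 184 to 138, 143 and 135 CPM (log2 fold change -0.43, SE 0.05, adjusted p = 8.1e-04), and XBP1, a factor of the secretory pathway, fell from 634, 612 and 607 to 514, 503 and 496 CPM (log2 fold change -0.29, SE 0.03, adjusted p = 7.7e-04). In bile acid synthesis and transport 4 of 18 fell and none rose (2 in every fit without a library but that without treated 1), among them ABCC2, a canalicular export pump, from 498, 472 and 484 to 421, 394 and 409 CPM (log2 fold change -0.25, SE 0.04, adjusted p = 0.0038). In bulk RNA, less RNA per cell and fewer cells that express a gene cannot be told apart, here or below.

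Replication-dependent histones, made in bulk while DNA is copied, had the largest share of falling genes among the lists in the main fit. Of 58 tested genes 43 fell and none rose (30 to 47 when 1 library was left out, 4 in the joint fit of 12 Huh7 libraries), with a median log2 fold change of -0.44 and 57 of 58 below 0. H4C1 (ENSG00000278637, chromosome 6, 26021649 to 26022050 on the plus strand of GRCh38) was at 125, 143 and 139 CPM in the controls and 65.6, 67.3 and 61.9 CPM after treatment (log2 fold change -1.06, SE 0.06, adjusted p = 4.7e-05). H3C4 was at 169, 177 and 179.7 CPM and then 119, 115 and 106 CPM (log2 fold change -0.63, SE 0.05, adjusted p = 2.0e-04). Histone genes are near-identical copies with GC-rich transcripts, so counts for single members are uncertain, and with the correction for GC and length 28 fell with a median of -0.26. Under that correction 20 of 26 cholesterol genes fell, a larger share than that of the histones. CCAAT was in 86.8% of 53 histone promoters, taken at the first start listed by RefSeq, against 36.9% of all genes.

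Of 43 S phase genes 8 fell and none rose, against 5.20% of all genes that fell, with a median of -0.12, and only 2 to 4 fell in each of the 6 fits without a library. MCM6, a subunit of the replicative helicase, was at 293, 292 and 286 CPM in the controls and 251, 246 and 256 CPM after treatment (log2 fold change -0.21, SE 0.03, adjusted p = 0.0059), and MCM2 was at 320.1, 334 and 308 and 272, 275 and 286 CPM (log2 fold change -0.21, SE 0.04, adjusted p = 0.014), lost without control 2 (adjusted p = 0.053). Of 54 genes of the G2 and M phases 8 fell and 2 rose, with a median of -0.04 (5 fell without control 1 or control 2). CDK1, the mitotic kinase, fell from 174, 187 and 179.6 to 154, 150.1 and 145 CPM (log2 fold change -0.27, SE 0.04, adjusted p = 0.0069), and CBX5, a heterochromatin protein, from 1146, 1128 and 1130.1 to 1000.2, 950.5 and 965 CPM (log2 fold change -0.22, SE 0.03, adjusted p = 0.0018). CDC20, an activator of the anaphase-promoting complex, was at 199, 196 and 193 and 228, 213 and 215 CPM (log2 fold change 0.16, SE 0.04, adjusted p = 0.039), and NEK2, a centrosomal kinase, at 32.7, 32.7 and 34.5 and 38.9, 43.6 and 39.9 CPM (log2 fold change 0.29, SE 0.07, adjusted p = 0.039), and these calls were lost without any library (NEK2) or any but treated 2 (CDC20). For p53 targets 4 of 34 rose and none fell, with a median of 0.08. SERTAD1, a regulator of cyclin-dependent kinase 4, rose from 8.94, 8.36 and 6.95 to 17.9, 14.9 and 17.6 CPM (log2 fold change 1.06, SE 0.14, adjusted p = 0.0027). Members that did not pass included CDKN1A, the cell cycle inhibitor p21, at 15.01, 10.6 and 12.6 and 18.2, 17.6 and 17.3 CPM (adjusted p = 0.074), and MDM2, the ligase that degrades p53, at 310.3, 304 and 301 and 281, 281 and 292 CPM (adjusted p = 0.11).

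Immediate early genes, which answer growth factors and stress within minutes, held the most rising genes of any list. Of 46 tested genes 16 rose and 2 fell (9 to 14 rose when 1 library was left out, 9 without control 3 and 10 without control 2 or treated 3), with a median of 0.09. FOSB, a subunit of the AP-1 factor, was at 3.06, 2.89 and 2.997 CPM in the controls and 8.35, 9.89 and 8.23 CPM after treatment (log2 fold change 1.56, SE 0.17, adjusted p = 8.5e-04). VGF, a secreted neuropeptide precursor, was at 0.402, 0.492 and 0.708 CPM and then 4.17, 4.23 and 2.80 CPM (log2 fold change 2.76, SE 0.35, adjusted p = 0.0018). Both genes were weakly expressed, and no treated library overlapped the controls, as for every called gene. DUSP6, a phosphatase of ERK, fell from 196, 203 and 215 to 179, 167 and 173 CPM (log2 fold change -0.24, SE 0.05, adjusted p = 0.013), lost without control 3 (adjusted p = 0.054). ZFP36L1, which promotes decay of AU-rich mRNAs, fell from 155, 159.6 and 167 to 135, 132 and 121 CPM (log2 fold change -0.31, SE 0.05, adjusted p = 0.0076).

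The study named 10 transcription factors for its rising genes, a choice made on these samples and so not independent of their direction. Of these 5 rose and none fell (2 to 5 when 1 library was left out). Beside FOSB and ATF3, FOS was at 4.92, 3.69 and 3.83 CPM in the controls and 8.24, 7.82 and 7.89 CPM after treatment (log2 fold change 0.94, SE 0.18, adjusted p = 0.012), and BHLHE40, a clock-related repressor, at 73.4, 72.1 and 77.5 and 87.4, 85.7 and 92.5 CPM (log2 fold change 0.25, SE 0.05, adjusted p = 0.02). NR4A3, an orphan nuclear receptor, was at 0.603, 1.84 and 0.791 and 3.86, 3.78 and 2.46 CPM (log2 fold change 1.67, SE 0.43, adjusted p = 0.044). FOS lost its call without control 3 (adjusted p = 0.057), BHLHE40 without control 1, control 2 or treated 3 (up to 0.078) and NR4A3 without any library but control 2 (up to 0.15). JUN was at 84.6, 92.1 and 77.1 and 91.8, 111 and 105 CPM and did not pass (log2 fold change 0.28, adjusted p = 0.068), and ETS2, EPAS1, ZBTB21 and CSRNP1 had log2 fold changes of 0.07, 0.05, 0.07 and -0.01. Of the 9 tested factors that the study named for falling genes, chosen in the same way, NR1H4 fell and HNF4A rose. The other 7 did not pass, with log2 fold changes of -0.22 for FOXA3, 0.16 for ATF5, -0.63 for NR1I2, -0.08 for ETV4, -0.09 for ZBED3, 0.41 for MLXIPL and -0.08 for CREB3L3.

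Of 33 inflammatory targets of NF-kB 3 rose and 1 fell, against 2.90% and 5.20% of all genes, with a median of 0.10, and 3 to 5 rose when 1 library was left out (5 without treated 1). TNFAIP3, a deubiquitinase that restrains NF-kB, was at 8.79, 10.6 and 10.8 CPM in the controls and 20.7, 22.5 and 16.8 CPM after treatment (log2 fold change 0.98, SE 0.15, adjusted p = 0.0042). NFKBIZ, a nuclear cofactor of NF-kB, rose from 41.4, 41.1 and 40.5 to 54.1, 56.6 and 59.6 CPM (log2 fold change 0.47, SE 0.06, adjusted p = 0.0019). CSF1, the macrophage growth factor, fell from 41.2, 41.01 and 42.4 to 30.2, 33.2 and 33.8 CPM (log2 fold change -0.36, SE 0.07, adjusted p = 0.016), lost without any 1 of the controls (adjusted p up to 0.078). The remaining riser was SDC4, a cell surface proteoglycan named here after its value was seen (log2 fold change 0.31), so no cytokine of the list rose.

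Of 31 genes that respond to YAP or TGF-beta 5 rose and 3 fell, with a median of 0.14, and 3 to 5 rose when 1 library was left out (3 without control 1 or control 3), against 9 by DESeq2. ID2, an inhibitor of helix-loop-helix factors, rose from 79.1, 83.2 and 80.5 to 115, 131 and 116 CPM (log2 fold change 0.57, SE 0.06, adjusted p = 6.1e-04). ITGA2, an integrin for collagen, fell from 159.6, 149 and 157 to 124, 124 and 127 CPM (log2 fold change -0.31, SE 0.04, adjusted p = 0.0027), and FST, which binds activin, from 101, 99.4 and 91.3 to 74.6, 81.2 and 75.3 CPM (log2 fold change -0.33, SE 0.06, adjusted p = 0.0088). Of 38 genes of the cytoskeleton and adhesion 6 rose and 3 fell, with a median of 0.01, and 1 to 5 rose when 1 library was left out (1 without control 3). TUBA1A, an alpha-tubulin, rose from 2.01, 2.64 and 3.33 to 7.72, 12.6 and 10.8 CPM (log2 fold change 1.95, SE 0.25, adjusted p = 0.0018), and since tubulin genes are close copies its share of reads is uncertain. TUBB, a beta-tubulin, fell slightly, from 1756, 1764 and 1696 to 1526, 1477 and 1529 CPM (log2 fold change -0.20, SE 0.03, adjusted p = 0.0025), and ACTN1, an actin crosslinker, from 139, 148 and 152 to 113, 118 and 105 CPM (log2 fold change -0.39, SE 0.06, adjusted p = 0.0035).

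Targets of the oxidative stress factor NRF2 split, with 5 of 28 higher, 8 lower and a median of -0.06, and 1 to 5 rose when 1 library was left out (1 without control 1 or control 2). HMOX1, heme oxygenase 1, rose from 31.2, 35.8 and 31.8 to 65.6, 78.1 and 74.5 CPM (log2 fold change 1.15, SE 0.08, adjusted p = 9.3e-05). FTL, the ferritin light chain, rose slightly, from 3730.1, 3708 and 3830.02 to 4055, 4207 and 4051 CPM (log2 fold change 0.13, SE 0.02, adjusted p = 0.013), lost without control 1 or control 2 (adjusted p up to 0.062). ME1, the cytosolic malic enzyme, fell from 212, 206 and 207 to 163, 156 and 158 CPM (log2 fold change -0.39, SE 0.04, adjusted p = 4.4e-04). NQO1, a quinone reductase often used to read out NRF2 and named here after its value was seen, fell from 1493, 1527 and 1475 to 1267, 1200.2 and 1265 CPM (log2 fold change -0.27, SE 0.03, adjusted p = 9.9e-04). The heme enzyme and the quinone reductase, both on this list, therefore moved in opposite directions.

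Metallothioneins, small proteins that bind zinc and copper, and zinc transporters included 4 rising genes of 12 and none falling, with a median of 0.31, but 1 to 4 rose when 1 library was left out (1 without control 2, control 3 or treated 2). MT2A was at 43.8, 43.3 and 41.6 CPM in the controls and 61.4, 73.99 and 59.1 CPM after treatment (log2 fold change 0.60, SE 0.08, adjusted p = 0.0033). MT1X was at 21.5, 20.4 and 19.5 CPM and then 29.7, 31.1 and 25.9 CPM (log2 fold change 0.50, SE 0.10, adjusted p = 0.017), lost without control 2, control 3 or treated 2 (adjusted p up to 0.079). All 4 risers are metallothioneins, whose genes are close copies, so single counts are uncertain. The promoter of MT1X is printed because it holds the metal response core TGCNCNC 4 times, more than the others shown here hold of their motifs. The core is loose, held by 62.4% of all promoters and 71.4% of the 7 on this list. The bases before the start lie at chr16:56682220-56682469 on the plus strand, with matches on either strand in capitals.
MT1X: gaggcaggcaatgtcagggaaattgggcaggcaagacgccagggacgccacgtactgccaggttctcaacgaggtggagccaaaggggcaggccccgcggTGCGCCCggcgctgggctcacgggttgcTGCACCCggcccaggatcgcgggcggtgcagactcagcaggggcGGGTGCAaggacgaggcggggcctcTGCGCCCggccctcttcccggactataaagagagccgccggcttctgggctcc
The matches lay 150, 122, 78 and 53 bases before the start.

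Amino acid breakdown and the urea cycle were lower where they changed, with 8 of 30 fallen and none risen and a median of -0.22 (4 to 8 fell when 1 library was left out, 4 without control 3). NAGS, which makes the activator of the urea cycle, was at 25.9, 25.3 and 27.5 CPM in the controls and 10.02, 10.3 and 9.84 CPM after treatment (log2 fold change -1.38, SE 0.10, adjusted p = 1.1e-04). CBS, the first enzyme of transsulfuration, fell from 128, 128 and 134 to 106, 101 and 105 CPM (log2 fold change -0.32, SE 0.04, adjusted p = 0.0027). In sugar metabolism 2 of 26 rose (1 to 2 when 1 library was left out) and 4 fell, with a median of -0.06. PKM, pyruvate kinase, fell from 2216, 2154 and 2131 to 1935, 1784 and 1831 CPM (log2 fold change -0.23, SE 0.03, adjusted p = 0.0036), GPI, the isomerase of the second step, from 355, 376 and 363 to 314, 296 and 309.8 CPM (log2 fold change -0.25, SE 0.04, adjusted p = 0.0042), and PFKFB3, which raises glycolytic flux, rose from 75.1, 75.9 and 76.8 to 104, 87.7 and 102 CPM (log2 fold change 0.36, SE 0.06, adjusted p = 0.0097). SLC2A2, the hepatocyte glucose transporter, fell from 6.38, 9.04 and 6.45 to 3.23, 3.24 and 1.87 CPM (log2 fold change -1.39, SE 0.25, adjusted p = 0.011). In the hypoxia list 4 of 25 rose and 3 fell, with a median of 0.04. STC2, a secreted glycoprotein shared with the ATF4 list, fell from 68.4, 77.9 and 72.9 to 49.03, 41.4 and 44.97 CPM (log2 fold change -0.70, SE 0.08, adjusted p = 8.5e-04), and NDRG1, a stress-responsive protein, rose from 40.5, 39.7 and 37.9 to 59.8, 51.97 and 54.3 CPM (log2 fold change 0.49, SE 0.07, adjusted p = 0.0033).

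Growth factor genes gave isolated calls. EGF fell from 27.8, 29.3 and 26.3 to 17.3, 15.9 and 17.4 CPM (log2 fold change -0.72, SE 0.09, adjusted p = 0.0022), and ERBB3, a receptor of the same family, from 309, 293 and 312 to 239.6, 261 and 255 CPM (log2 fold change -0.27, SE 0.04, adjusted p = 0.0051). IGF2, a fetal growth factor, rose from 1165, 1118 and 1148 to 1289, 1339.8 and 1315 CPM (log2 fold change 0.20, SE 0.03, adjusted p = 0.003). Among 10 members of the EGF family list 1 rose and 2 fell, and of the insulin and growth hormone axis 1 of 17 rose and 1 fell.

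Of 78 cytosolic ribosomal protein genes 7 fell and none rose, against 5.20% of all genes that fell, with a median of -0.10 and 72 of 78 below 0, and the count ran from 1 without control 3 to 23 without treated 2. RPL13A was at 765, 725 and 719 CPM in the controls and 628, 622 and 599.7 CPM after treatment (log2 fold change -0.26, SE 0.03, adjusted p = 0.0025). Of 76 nuclear-encoded genes of oxidative phosphorylation 1 fell and none rose, of 32 proteasome subunits 1 rose and none fell, and none of the 13 mitochondrially encoded genes passed in either direction in edgeR's test. Of 29 endoplasmic reticulum chaperones and folding genes 1 rose and 5 fell (2 to 4 fell when 1 library was left out, 2 without control 2 or control 3), with ATF6, the stress sensor, up from 53.97, 52.6 and 51.98 to 67.6, 67.2 and 71.5 CPM (log2 fold change 0.38, SE 0.05, adjusted p = 0.003) and PDIA4, a disulfide isomerase, down from 316, 335 and 329.99 to 271, 265 and 291 CPM (log2 fold change -0.25, SE 0.04, adjusted p = 0.0088). Of 21 cytosolic heat shock genes 1 rose, of 28 interferon-responsive genes 1 rose and 1 fell, of 35 autophagy and lysosome genes 1 rose and 1 fell, and of 40 genes of MYC and ribosome biogenesis 2 rose and 1 fell. The rises of these 4 lists and of the proteasome came to 0 without at least 1 of the libraries.

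**Figure D4:**
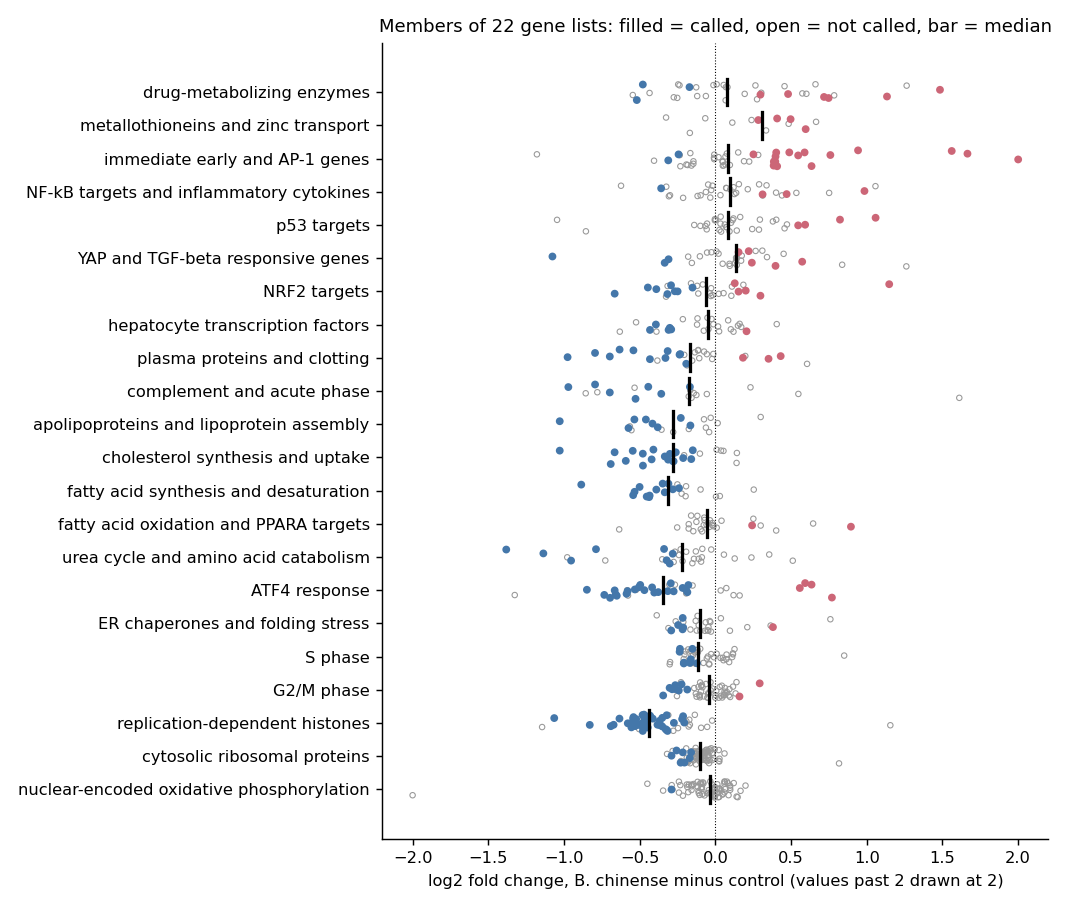
Log2 fold change of B. chinense against control for the tested members of 22 gene lists, with called genes filled (red higher, blue lower), other genes open and a bar at the median of each list. Histones, ATF4 responsive genes and both lipid synthesis lists sit to the left of 0 with medians between -0.44 and -0.28, and metallothioneins to the right with 0.31.

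Genes outside these lists gave many of the largest fold changes, and most were weakly expressed. MUC13, a membrane mucin, was at 4.12, 4.30 and 4.04 CPM in the controls and 13.7, 12.2 and 13.8 CPM after treatment (log2 fold change 1.67, SE 0.14, adjusted p = 2.4e-04). SIRT7, a nuclear deacylase, rose from 2.11, 2.58 and 3.29 to 8.87, 8.45 and 8.82 CPM (log2 fold change 1.70, SE 0.20, adjusted p = 0.0013). DLK1 (ENSG00000185559, chromosome 14, 100725705 to 100738224 on the plus strand of GRCh38), a Notch-related protein of fetal liver, had the lowest adjusted p among the falls of at least 2-fold, from 84.7, 85.7 and 90.4 to 34.6, 29.6 and 29.6 CPM (log2 fold change -1.48, SE 0.07, adjusted p = 1.5e-05). Like all called genes, these separated the groups in every library. FSTL1, a secreted glycoprotein, rose from 2.41, 3.997 and 2.46 to 6.47, 5.84 and 6.96 CPM (log2 fold change 1.13, SE 0.24, adjusted p = 0.02), FUCA1, a lysosomal fucosidase, from 1.66, 2.71 and 2.71 to 3.65, 6.65 and 5.43 CPM (log2 fold change 1.16, SE 0.29, adjusted p = 0.04), ATP6V0E2, a proton pump subunit, from 3.56, 2.40 and 2.58 to 4.90, 5.75 and 7.30 CPM (log2 fold change 1.07, SE 0.24, adjusted p = 0.025) and PTPRH, a receptor phosphatase, from 5.47, 4.18 and 4.45 to 7.20, 9.53 and 12.2 CPM (log2 fold change 1.04, SE 0.21, adjusted p = 0.019). Each of the last group lost its call in at least 3 fits without a library, with adjusted p up to 0.12 for FUCA1.

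Among the large falls, COL9A3, a collagen chain, went from 3.51, 6.15 and 4.49 to 1.56, 1.35 and 1.19 CPM (log2 fold change -1.78, SE 0.29, adjusted p = 0.0061), and SPP1, osteopontin, from 21.7, 23.3 and 22.6 to 10.4, 9.08 and 8.15 CPM (log2 fold change -1.29, SE 0.12, adjusted p = 4.4e-04). TFR2, the hepatocyte iron sensor, fell from 8.13, 6.64 and 6.78 to 3.23, 2.07 and 2.38 CPM (log2 fold change -1.50, SE 0.21, adjusted p = 0.0034), and SLC38A5, a glutamine transporter, from 6.23, 8.05 and 7.03 to 2.61, 3.33 and 1.36 CPM (log2 fold change -1.55, SE 0.28, adjusted p = 0.011). SHMT1, the cytosolic serine hydroxymethyltransferase, was at 10.996, 34.99 and 32.8 CPM in the controls and 8.76, 7.19 and 8.99 CPM after treatment (log2 fold change -1.66, SE 0.38, adjusted p = 0.029), and control 1 stood close to the treated libraries while the other controls stood far above them. The call was lost in 5 of 6 fits without a library (adjusted p up to 0.098). PLEKHB1, a membrane-associated protein, fell from 20.6, 13.7 and 18.98 to 8.87, 5.21 and 5.60 CPM (log2 fold change -1.45, SE 0.22, adjusted p = 0.0051), and GABRG1 and BRINP3 fell with log2 fold changes of -1.22 and -1.21, the call of GABRG1 being lost without control 2 or control 3 (adjusted p up to 0.054). A further 5 called genes were at 0 in all libraries of a group. The most abundant was VWA7 (ENSG00000204396, chromosome 6, 31765590 to 31777328 on the minus strand of GRCh38), at 4.97, 4.43 and 3.37 CPM in the controls and 0 in each treated library (adjusted p = 5.3e-04), which is at least 15.3-fold lower against a floor of 3 counts per library. VWA7 lies in the major histocompatibility region, where alternative haplotypes carry copies of genes, and how reads were divided among such copies was not tested.

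The response of Huh7 cells was set beside that of A549 cells, a lung adenocarcinoma line given the same extract, by the interaction in a fit of the 12 libraries concerned. Of 12696 genes tested in both lines 2358 responded differently (18.6%), 1229 with a higher log2 fold change in Huh7 (9.68%) and 1129 with a lower one (8.89%). In A549 cells alone 1526 of the 13461 genes tested rose and 1809 fell, against 400 and 717 of 13784 in Huh7, so list counts of the 2 lines stand on unlike totals. Cell cycle genes held the largest shares of differing genes among the lists. In A549 cells 41 of 43 S phase genes and 52 of 54 genes of the G2 and M phases fell, and the interaction passed for 38 and 51 of them, in each case with the Huh7 value higher. CDK1 had a log2 fold change of -0.27 in Huh7 and -1.18 in A549 (log2 difference 0.90, SE 0.07, adjusted p = 9.9e-07). Histone genes fell in both lines, 43 of 58 in Huh7 and 50 of 53 in A549, and 45 of the 52 compared fell less in Huh7. For p53 targets 33 of 37 rose in A549 and 4 of 34 in Huh7, and the interaction passed for 26 of 34, all lower in Huh7. The study describes A549 as wild type for p53 and Huh7 as mutant. Whether this bears on the difference was not tested.

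The aryl hydrocarbon receptor targets CYP1A1, CYP1B1 and TIPARP rose in both lines, and the rises of CYP1A1 and TIPARP were smaller in Huh7. In A549 cells CYP1A1 was low in the controls, at 0.25, 0.487 and 0.191 CPM, and at 3.51, 6.11 and 11.4 CPM after treatment. It had a log2 fold change of 1.13 in Huh7 and 4.41 in A549 (log2 difference -3.26, SE 0.60, adjusted p = 0.0017), and TIPARP of 0.72 and 1.87 (log2 difference -1.18, SE 0.15, adjusted p = 1.1e-04). For CYP1B1 the values were 1.48 and 1.90, and the difference did not pass (log2 difference -0.46, SE 0.30, adjusted p = 0.34). Some genes went in opposite directions. FOS rose in Huh7 and had a log2 fold change of -0.95 in A549 (log2 difference 1.87, SE 0.25, adjusted p = 1.3e-04), and SLC7A11 fell in Huh7 but had 0.17 in A549 (log2 difference -0.86, SE 0.06, adjusted p = 9.9e-07). The fibrinogen chain FGB had 0.43 and -2.002 (log2 difference 2.43, SE 0.29, adjusted p = 5.2e-05). Of 25 cholesterol genes 10 passed the interaction, 8 of them lower in Huh7, and of 21 fatty acid synthesis genes 8 passed, 7 of them lower, against 18.6% of all genes. For ATF4 responsive genes 18 of 38 fell in A549, where 1809 of all 13461 genes fell. In Huh7 22 of 38 fell, against 717 of all 13784 genes, and in the interaction 12 were lower and 3 higher. PHGDH was at -0.73 and -0.58, a difference that did not pass (log2 difference -0.17, SE 0.12, adjusted p = 0.39).

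**Figure D5:**
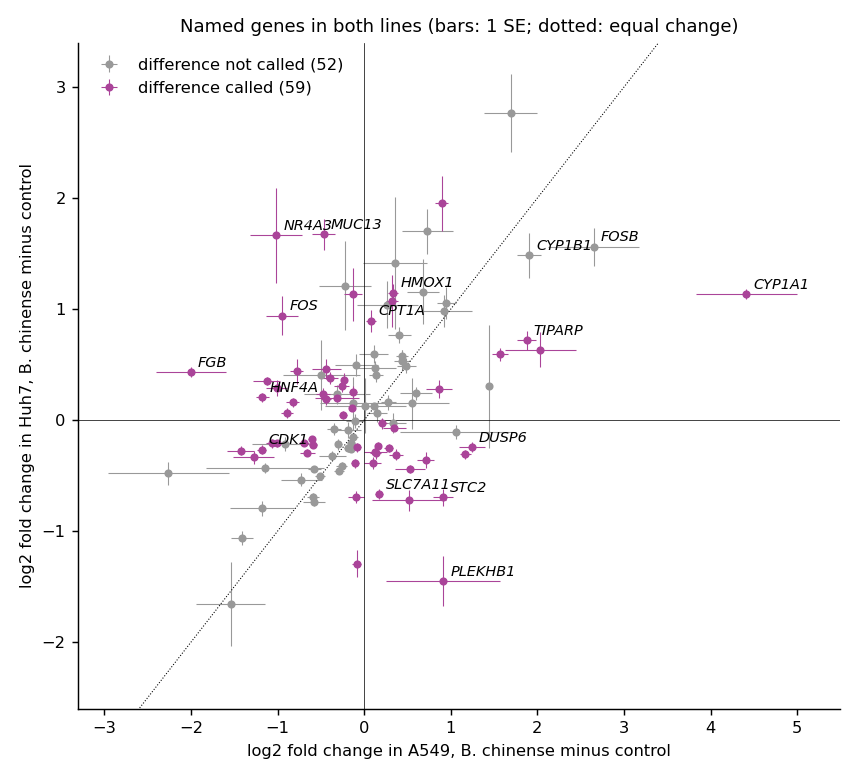
Log2 fold change of B. chinense against control in Huh7 cells plotted against that in A549 cells for the 111 named genes tested in both, with bars of 1 SE from the fit of each line and a dotted line of equal change. The 59 genes in purple passed the interaction test, and CYP1A1 lies far to the right with a larger rise in A549.

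Within Huh7 cells, the treated libraries were also compared directly with the 3 libraries given P. chinensis, in a fit with no control library. Of 13921 genes tested 3204 differed (23.0%), with 1728 higher after B. chinense (12.4%) and 1476 lower (10.6%), and without P. chinensis 1 there were 947 lower genes. Lipid synthesis was higher after B. chinense, with 23 of 26 cholesterol genes and 15 of 21 fatty acid genes above their level after P. chinensis and none below. INSIG1 was at 137, 135 and 121 CPM after B. chinense and at 65.1, 61.5 and 61.97 CPM after P. chinensis (log2 difference 1.06, SE 0.06, adjusted p = 9.1e-06). SCD was at 3147, 2959 and 3095 CPM and 1689, 1603 and 1664 CPM (log2 difference 0.89, SE 0.03, adjusted p = 9.8e-07), and the 2 groups did not overlap for either gene. Immediate early genes were lower after B. chinense, 32 of 46 against 4 higher, and so were NF-kB targets, 21 of 34 against none higher. FOSB was at 8.49, 10.1 and 8.39 CPM and 31.5, 30.4 and 29.8 CPM (log2 difference -1.77, SE 0.11, adjusted p = 1.4e-05), and TNFAIP3 at 21.02, 22.9 and 17.1 CPM and 41.5, 43.3 and 39.2 CPM (log2 difference -1.03, SE 0.11, adjusted p = 2.3e-04). CYP1A1 was at 289.9, 290.3 and 311 CPM and 395, 404 and 393 CPM (log2 difference -0.42, SE 0.04, adjusted p = 9.0e-05). Histones were higher after B. chinense for 39 of 59 genes and lower for none. The doses of the 2 extracts in the sequenced cells were not given in the sources used here.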

How the data were processed

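RNA was sequenced as stranded total RNA libraries after ribosomal RNA depletion, a preparation that keeps histone mRNAs without poly(A) tails. The authors checked reads with FastQC and quantified them with kallisto against GRCh38.p13 transcripts, and the deposited values are estimated counts per gene as whole numbers, with no normalisation. How transcript estimates were summed to genes and rounded is not given in the sources used here. Symbols were matched to annotation on GRCh38 for 14584 of 14585 genes.

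Genes with a mean count above 5 over the 6 libraries were fitted with edgeR 4.0.16 in R 4.3.3 (TMM factors, quasi-likelihood test, two-sided, 1 coefficient per group, Benjamini-Hochberg threshold 0.05 over all genes tested), after the script was tested on simulated data. Levels are CPM after TMM and fold changes are treated over control on the log2 scale. Standard errors are the fold change over the square root of its F statistic. Alternatives were DESeq2 1.42.0, voom with quality weights in limma 3.58.1, other scalings and filters, thinning to equal depth, fits with 9 or 12 Huh7 libraries, a replicate block, leaving out each library and, chosen after seeing the data, a correction for GC and length. The difference between lines was the interaction contrast in 12 libraries, and B. chinense was compared with P. chinensis in 6 libraries without controls. Totals ranged from 9526159 to 24345541 counts per library, and a floor of 3 counts corresponds to 0.125 to 0.313 CPM. Standard errors include the estimated spread between libraries, whereas floors cover counting error only.

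The genes named are the 12 largest rises and 12 largest falls among called genes that averaged 50 counts or more and whose groups do not overlap, the 6 of lowest adjusted p, up to 2 rises and 2 falls of lowest p in each list (or the most abundant member where none passed), study-named factors, markers, and members whose absence from the calls is stated. Some genes that meet this rule are not reported here. The comparison, the members and the lists were chosen with earlier results of these data known, so no list is independent support. Replicates of a group differed by more than sampling noise and were each counted. Promoters came from a RefSeq table (GRCh38.p14, first listed start, 250 bases before to 50 after it), matched for 11185 tested genes, and motifs were searched on both strands, counting each motif separately also where matches overlap.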

Additional observations from a re-analysis of the deposited data

Results flagged for a closer look

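Of 136 named genes 111 could be tested for a different response in Huh7 and A549 cells. By the interaction term of edgeR's quasi-likelihood test 59 differed at an adjusted p below 0.05, 34 with a higher log2 fold change in Huh7 and 25 with a lower one. Among all 12696 genes tested 2358 differed (18.6%). Many genes were named for their change in the same Huh7 libraries, so these shares cannot be compared. For 37 of the genes that differed the fold changes of the 2 lines had opposite signs, counted whether or not either change passed its own test. Some of these changes were near 0, such as ACTN1 in A549 cells (0.10, adjusted p = 0.53 in edgeR's test) and EPAS1 in Huh7 cells (0.05, adjusted p = 0.49). Values below are the log2 fold change in Huh7 minus that in A549, each from 3 treated and 3 control libraries per line. The origin of these differences was not tested, and the lines differ in tissue, p53 status, depth and many genes.

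For cell cycle and replication the difference was 0.90 for CDK1, 0.83 for MCM2, 0.78 for MCM6, 0.96 for CDC20, 1.28 for NEK2 and 0.34 for CBX5. NEK2 had the widest gap of these, at 0.29 in Huh7 and -1.01 in A549 cells. For ribosome biogenesis, protein turnover and folding the difference was 0.68 for DKC1, 0.54 for RRP9, 0.88 for PSMA5, 0.23 for HSPA8, 0.75 for ATF6, 0.34 for XBP1 and -0.19 for PDIA4. PSMA5 had the widest gap of these, at 0.46 in Huh7 and -0.44 in A549 cells. For aryl hydrocarbon receptor targets and other enzymes of foreign compounds and stress the difference was -3.26 for CYP1A1, -1.18 for TIPARP, 0.41 for ALDH1A1, 0.79 for HMOX1, -0.31 for ME1 and -0.56 for ABCC2. CYP1A1 had the widest gap of these, at 1.13 in Huh7 and 4.41 in A549 cells. For early response genes and factors the difference was 1.87 for FOS, -0.60 for JUN, 2.66 for NR4A3, 0.94 for ETS2, 0.27 for EPAS1, 0.36 for BHLHE40, -1.52 for DUSP6, -0.70 for ZFP36L1 and 0.61 for ERRFI1. NR4A3 had the widest gap of these, at 1.67 in Huh7 and -1.02 in A549 cells. For the ATF4 list the difference was -1.44 for ATF3, -0.997 for GDF15, -1.63 for STC2 and -0.86 for SLC7A11. STC2 had the widest gap of these, at -0.70 in Huh7 and 0.91 in A549 cells. For secreted liver proteins and their regulators the difference was 1.46 for FGA, 2.43 for FGB, -1.01 for C3, -0.45 for TF, 1.36 for HNF4A and -1.23 for SPP1. FGB had the widest gap of these, at 0.43 in Huh7 and -2.002 in A549 cells. For growth factors and their receptors the difference was -1.23 for EGF, 1.11 for ERBB3, 0.51 for IGF2 and -1.09 for CSF1. EGF had the widest gap of these, at -0.72 in Huh7 and 0.51 in A549 cells. For adhesion, cytoskeleton and TGF-beta responsive genes the difference was -1.50 for ITGA2, 0.90 for FST, -0.51 for ACTN1, 1.03 for TUBA1A, 0.47 for TUBB and 1.25 for FSTL1. ITGA2 had the widest gap of these, at -0.31 in Huh7 and 1.17 in A549 cells. For lipid and sugar metabolism the difference was -0.62 for INSIG1, 0.79 for CPT1A, -0.41 for PKM and 0.57 for PFKFB3. CPT1A had the widest gap of these, at 0.90 in Huh7 and 0.08 in A549 cells. For the remaining genes the difference was 2.12 for MUC13, -2.41 for PLEKHB1, 1.20 for OAS3, -0.44 for FNIP2, 0.73 for ATP6V0E2, -0.45 for NDUFC2 and -0.26 for MT-CO1. PLEKHB1 had the widest gap of these, at -1.45 in Huh7 and 0.91 in A549 cells.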

How the results depend on the processing

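Depth differed between the groups, with the lowest control total above the highest treated total, and weakly expressed genes had few counts in treated libraries. Calls of genes with small fold changes rest on all 6 libraries. Of the 1117 calls 157 were kept under every alternative run other than the limit of an absolute log2 fold change of at least 1. The replicate numbers gave no sign of pairing between libraries. Deviations of libraries with the same number correlated by -0.024 to 0.016, and those with other numbers by -0.027 to 0.014. Such few values cannot exclude pairing, which the labels do not state. With the number as a replicate block 200 genes rose and 464 fell. Of the named genes 15 lost their call under the block.

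With all 12 Huh7 libraries 80 genes rose and 114 fell, and with an absolute log2 fold change of at least 1 the counts were 34 and 34. Other settings gave 387 to 590 rises and 616 to 854 falls, apart from thinning to equal depth with 319 and 638. Leaving out 1 library gave 123 to 266 rises and 350 to 588 falls, and 947 to 1384 genes lower than after P. chinensis, with 947 without P. chinensis 1 and 952 without P. chinensis 3. The median log2 fold change of the EGF family turned to 0.0808 with no filter and 0.0801 with a mean count above 20. With the GC and length correction, medians were -0.20 for apolipoproteins, -0.26 for histones, 0.44 for metallothioneins and 0.0150 for hypoxia. Fatty acid synthesis was at -0.29 with upper quartile scaling and -0.28 after thinning, hypoxia at 0.0631 with upper quartile and 0.0222 with voom, and autophagy at 0.0410 with upper quartile scaling. The cause was not tested. Without 1 library medians ran from -0.0667 to 0.0029 for the EGF family, 0.0247 to 0.137 for NF-kB targets, -0.11 to -0.0341 for NRF2 targets, -0.34 to -0.22 for apolipoproteins, -0.0198 to 0.0418 for autophagy, -0.465 to -0.286 for complement, -0.147 to -0.0751 for ribosomal proteins, -0.33 to -0.29 for fatty acid synthesis, -0.119 to -0.0663 for hepatocyte markers, -0.0918 to -0.0316 for hepatocyte factors, 0.0073 to 0.0631 for hypoxia, 0.0639 to 0.126 for immediate early genes, -0.0349 to 0.097 for the insulin axis, 0.14 to 0.19 for interferon genes, -0.21 to -0.14 for plasma proteins and -0.46 to -0.33 for histones. Of 107 called named genes 74 were called whichever library was left out. Under every other alternative apart from the joint fit of 12 libraries and the limit on fold change, 90 were called.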

Other observations

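Promoter letters were counted for all tested genes with a promoter in the table, 333 rising and 568 falling ones among them, as a description without a test. TATAAA was in 10.8% of promoters of rising genes, 10.7% of falling genes and 6.5% of all genes. The ATF4-type letters TGATGNAA were in 1.2%, 4.2% and 1.9%. CCAAT was in 38.4%, 41.2% and 36.9%, and the core GCGTG in 48.6%, 44.7% and 49.2%. Histone genes, many of them among the falling genes, held TATAAA in 69.8% and CCAAT in 86.8% of 53 promoters, and the cholesterol list held CCAAT in 84.2% of 19.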
